A study of Capsicum annuum with 78 samples.

Results

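The genes described here are 150 pepper leaf genes whose transcripts were highest at 6 and 12 h of the mock time course, out of 35884 genes in the count table. They were selected on the mock libraries alone. Counts were divided by the library total and scaled to 1000000 (counts per 1000000, CPM), and the mean log2(CPM+1) of each mock group was taken. For the 16096 genes with a mean mock CPM from 2 to 1000, a score S was computed as the lower of the 6 and 12 h means minus the highest of the 0, 24 and 72 h means. A score of at least 1 was reached by 473 genes, and the 150 with the largest scores were kept, which is 0.932% of the genes in the CPM range. The last gene kept and the first gene left out both had a score of 1.57, so the limit falls within a continuous range and not at a gap.

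Leaves of Capsicum annuum, cultivar CM334, were collected under 5 treatments. Mock plants were sampled at the start (0 h), then at 3 and 6 h, at 12 and 24 h and finally at 72 h. Stressed plants were sampled at the same times except the start. Their air was at 40 °C for heat and at 10 °C for cold, and for the osmotic and the salt stress their pots received 50 mL of a 400 mM solution of mannitol or of NaCl. All plants, mock included, had been grown at 24 °C with 16 h of light and 8 h of dark, and each of the 26 groups had 3 biological replicates, each pooling leaves of 4 plants from set positions on the stem, which gives 78 libraries. In these bulk samples, fewer cells of a type and less RNA per cell cannot be told apart.

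Many leaf transcripts rise and fall with the time of day. In plants such rhythms are driven by a clock of interlocking transcriptional feedback loops, which is set by light and temperature and times photosynthesis, starch turnover, hormone signalling and the response to cold. Daily transcripts can also follow light or temperature directly, without the clock.

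The 0, 24 and 72 h samples share a clock hour, because whole days lie between them. The 6 and 12 h samples were taken on 1 day only, and the hour at which sampling began is not given in the sources used here. A daily rhythm and a single change after the start of the experiment therefore cannot be told apart, and in stressed leaves the clock hour and the length of the stress cannot be told apart. Gene IDs are printed as in the table without their shared prefix, and name a genome scaffold and a gene number on it. They matched 0 of 48341 genes of the reference name table, so no gene name, role, promoter or protein sequence is given, and the leaf label was not checked against marker genes.

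Total counts per library ran from 4310398 to 7667094, with a median of 5928347. Heat had the lowest median, 5077986, and mannitol the highest, 6419477. Correlations between replicate libraries of a group lay between 0.974 and 0.991, and no pair differed by less than the sampling noise. Across all genes, 2 of the 78 libraries had their nearest neighbour outside their own group, mannitol replicate 3 at 6 h and at 12 h, each closest to an NaCl library of the same time.

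The mock values are given as a description, since they chose the genes. The median level of the 150 genes was a log2(CPM+1) of 2.81 at 0 h and 4.17 at 3 h. It stood at 5.83 and 5.58 at 6 and 12 h, and at 2.80 and 2.47 after 24 and 72 h. In single mock libraries this median ran from 5.58 to 5.88 at 6 and 12 h and from 2.36 to 3.04 at 0, 24 and 72 h. Over the 19588 genes that passed the filter on low counts, the median stayed between 3.54 and 3.94 at all 6 mock times. S itself had a median of 1.95 and reached 5.54. Of the 150 genes, 84 had their highest mock mean at 6 h and 66 at 12 h. All 150 passed the low-count filter.

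The rule set the range of abundance. The mean mock CPM of the 150 genes had a median of 24.4 with quartiles of 9.03 and 57.8, against 17.8 with quartiles of 7.24 and 41.8 for all genes in the CPM range. A gene had a median of 34 counts in a mock library at 0, 24 and 72 h and of 329 at 6 and 12 h. At the low hours, 3 genes had 3 counts or fewer in every mock library.

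The choice was repeated with each mock replicate left out, and the score of the chosen genes was then read in the replicate not used. It was above 0 in 150, 147 and 149 of 150 genes for replicates 1, 2 and 3, with medians of 1.89, 1.91 and 1.94. At the rule's own limit of 1 the counts were 147, 134 and 146. The lowest score in replicate 2 was -2.70. These lists shared 136, 135 and 135 genes with the 150.

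**Figure D1:**
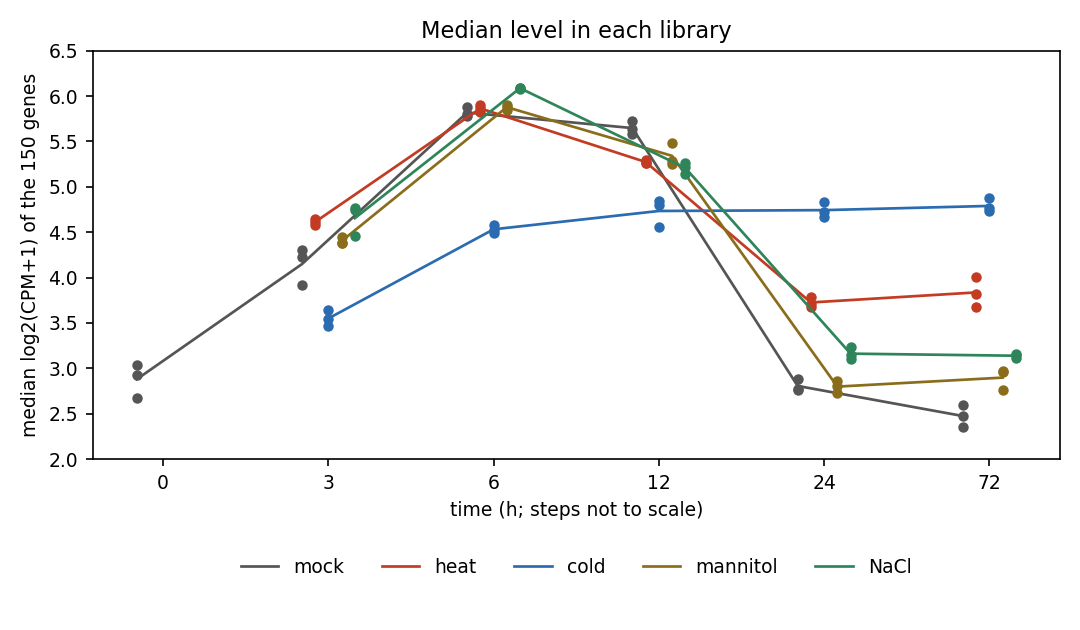
Median log2(CPM+1) of the 150 genes in each of the 78 libraries (points) by time in h, with lines through the group means of 3 libraries. Mock, mannitol, heat and NaCl libraries were high at 6 and 12 h and lower at 24 and 72 h, while the cold libraries from 12 h on lay between 4.56 and 4.87.

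The first question was whether the genes, chosen in mock leaves, followed the same time course under each stress. For this the 6 and 12 h libraries of a stress were compared with its 24 and 72 h libraries, and the fitted log2 difference is called the swing. A gene was called when edgeR's quasi-likelihood test gave a Benjamini-Hochberg adjusted p below 0.05 over all 19588 genes tested and the log2 difference was beyond 1 in either direction. The stress libraries had no part in choosing the genes. Shares of all genes called are at this limit. Counts at an unadjusted p have no fold limit and no such share beside them, so they cannot be set against those shares.

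In mannitol, which draws water from the roots without adding salt ions, the time course closely followed that of the mock. The median level was 5.85 and 5.37 at the high hours, 6 and 12 h, and 2.79 and 2.82 at the low hours, 24 and 72 h. The swing was called higher in 146 of the 150 genes, where 8.39% of all genes tested were, and lower in 0, where 8.76% of all genes were. Unadjusted, at p below 0.05, 148 genes were higher and 0 lower, and DESeq2 called 146 higher and 0 lower. The median swing was 2.44 on the log2 scale. All 6 libraries at 6 and 12 h lay above all 6 at 24 and 72 h for 143 genes, against 19.7% of all genes tested. Without the mannitol libraries that stood apart, the swing was called higher in 144 and lower in 0.

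In NaCl, which adds ion stress to the loss of water, the pattern was much the same. The median level reached 6.12 at 6 h, the highest of any group, and then 5.22, 3.15 and 3.11 at the 12, 24 and 72 h samplings. The swing was called higher in 143 genes, against 7.75% of all genes tested, and lower in 0, against 7.21%. DESeq2 also called 143 and 0, and an unadjusted p below 0.05 was reached by 145 higher and 0 lower. The median swing was 2.31, and the 6 high-hour libraries lay above the 6 low-hour libraries for 136 genes, where 12.2% of all genes did so.

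In heat the rise was kept and the fall was smaller. The median level was 5.86 and 5.30 at 6 and 12 h, and 3.72 and 3.81 at 24 and 72 h. The swing was called higher in 113 genes, against 8.19% of all genes tested, and lower in 0, against 6.39%, with a median of 1.70. At an unadjusted p below 0.05, 145 genes were higher and 1 lower, and DESeq2 called 110 higher and 0 lower. The 6 high-hour libraries lay above the 6 low-hour libraries for 124 genes, against 15.4% of all genes tested.

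Cold was the exception. The median level climbed from 3.53 at 3 h through 4.52 to 4.79 at 12 h, and then stood at 4.77 and 4.76 on the later days. The swing was called higher in 26 genes, against 11.7% of all genes tested, and lower in 18, against 7.18%, and 106 genes were not called. The first count amounts to 17.3% of the genes and the second to 12.0%. With library totals in place of TMM scaling these counts became 20 higher and 34 lower, since that scaling moved the median swing of all genes in cold from 0.01 to -0.25. The median swing of the 150 genes was 0.16 with TMM and -0.09 with library totals, so its sign depended on the scaling. The 6 high-hour libraries lay above the 6 low-hour libraries for 26 genes, against 7.94% of all genes tested, and below them for 36, against 20.9%.

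**Figure D2:**
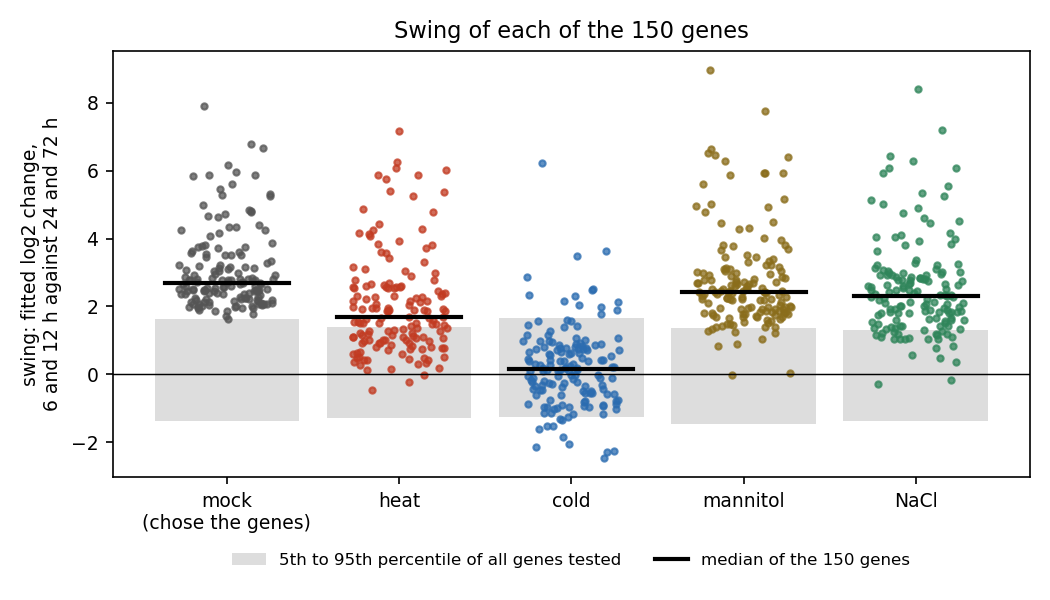
Swing of each of the 150 genes (points), the fitted log2 change of the 6 and 12 h libraries against the 24 and 72 h libraries, by treatment, with the median as a black line and the 5th to 95th percentile of all genes tested as a grey band. The median was 0.16 in cold and 1.70 or more in the other stresses. The mock values chose the genes and are shown for reference.

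Of the 150 genes, 23 were called higher at 6 and 12 h in all 4 stresses, against 0.822% of all genes tested, and 87 in 3, against 2.45%. A further 36 were called higher in 2 stresses, against 5.19%, 3 in 1, against 15%, and 1 in none, against 76.6%. Heat, mannitol and NaCl shared 107 genes called higher, against 2.31% of all genes tested. Of these 107, 23 were also higher in cold, 6 were lower and 78 were not called. Over all genes tested, 452 were called higher in heat, mannitol and NaCl, and 161 of those also in cold. The swing in mannitol and the swing in NaCl went together gene by gene, with a Pearson r of 0.951 over the 150 genes, whereas r was 0.459 for mannitol and cold and 0.722 for heat and mannitol. These are correlations across genes of 1 fit, which are not independent replicates.

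For comparison, genes with the opposite mock pattern were taken. By the reversed rule, 150 genes were lowest at 6 and 12 h of the mock. Their swing was called lower in 150 in mannitol, against 8.76% of all genes tested, in 147 in NaCl, against 7.21%, and in 139 in heat, against 6.39%. In cold it was called lower in 17, against 7.18%, and higher in 40, against 11.7%. With TMM scaling both sets thus held more genes called higher than lower in cold, as did all genes tested, at 11.7% and 7.18%. With library totals the first 150 genes had 20 higher and 34 lower, and no such count is given for the opposite set.

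The differences in swing between stresses were then tested directly, with mannitol as the reference because the mock had chosen the genes. Mannitol was taken because, of the 4 stresses, it was nearest to the mock in earlier results of these data. A stress near the mock can be expected to keep the mock's swing, so mannitol was not a neutral reference. The swing was smaller in cold than in mannitol for 138 genes, against 11.4% of all genes tested, and larger for 0, against 15.7%, with a median difference of -2.38. DESeq2 called 138 smaller and 1 larger, and an unadjusted p below 0.05 was reached by 142 and 1. The swing was also smaller in cold than in heat for 104 genes, against 12.4%, and larger for 2, against 13.0%, with a median difference of -1.80. The count of 2 became 1 without cold replicate 3 or heat replicate 1 or 2.

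Heat and mannitol differed in fewer genes. The swing was smaller in heat for 61 genes, against 6.83% of all genes tested, and larger for 7, against 8.49%, with a median difference of -0.74. NaCl and mannitol differed in 3 genes in each direction, against 0.740% higher and 0.531% lower of all genes tested, with a median difference of -0.23. The first of these counts became 1 without NaCl replicate 1 or 3 or mannitol replicate 2 or 3, and the second became 5 without mannitol replicate 1.

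The smaller swing in cold came with differences at both the low and the high hours. At 24 and 72 h, 109 of the 150 genes were higher in cold than in mannitol, where 12.5% of all genes tested were, and 3 were lower, where 16.3% were. The median difference there was 1.55 on the log2 scale. At 6 and 12 h, 64 genes were lower in cold, against 10.2%, and 5 higher, against 10.9%, with a median difference of -0.86. The count of 5 became 3 without cold replicate 2. Without adjustment, at p below 0.05, 131 genes were higher in cold at the low hours and 106 lower at the high hours. Of the 138 genes with a smaller swing in cold, 72 were called only at the low hours, 25 only at the high hours, 36 at both and 5 at neither. By construction the difference in swing is the high-hour difference minus the low-hour difference. The split therefore describes these genes and is not a further test.

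Heat and mannitol were compared in the same way. At 24 and 72 h, 60 genes were higher in heat than in mannitol, against 9.45% of all genes tested, and 10 lower, against 13.4%, with a median difference of 0.86. At 6 and 12 h, 12 were higher, against 6.30%, and 14 lower, against 8.96%, shares near the background, with a median difference of -0.09. Of the 61 genes with a smaller swing in heat, 44 were called only at the low hours, 7 only at the high hours, 0 at both and 10 at neither. This split too is a description, for the reason given for cold.

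NaCl and mannitol libraries were compared last. At 24 and 72 h, 4 genes were higher in NaCl, against 1.03% of all genes tested, and 2 lower, against 1.22%. At 6 and 12 h, edgeR called 0 higher, against 0.674%, and 0 lower, against 0.378%, and DESeq2 also called 0 and 0. At an unadjusted p below 0.05, 36 were higher and 14 lower at those hours, and 72 were higher and 9 lower at 24 and 72 h. The shares above belong to the stricter limit and are no background for these counts. The median difference was 0.07 at the high hours and 0.32 at the low hours. The count of 4 became 1 without NaCl replicate 3, and 2 genes were called higher at the high hours without mannitol replicate 3.

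Relative to mock leaves of the same time, values are given as a description only, since the mock libraries chose the genes. In cold the median log2 difference from the mock was -1.23 at 6 h, with 139 genes below the mock, and -0.73 at 12 h. It turned to 1.83 after 24 h, with 138 genes above the mock, and to 1.97 after 72 h, with 139 above. For heat the medians from 6 h on were 0.03, -0.42, 0.62 and 1.20. In mannitol it stayed between -0.23 and 0.27, and in NaCl between -0.32 and 0.45. The median over all genes tested lay within -0.04 and 0.08 in these comparisons.

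**Figure D3:**
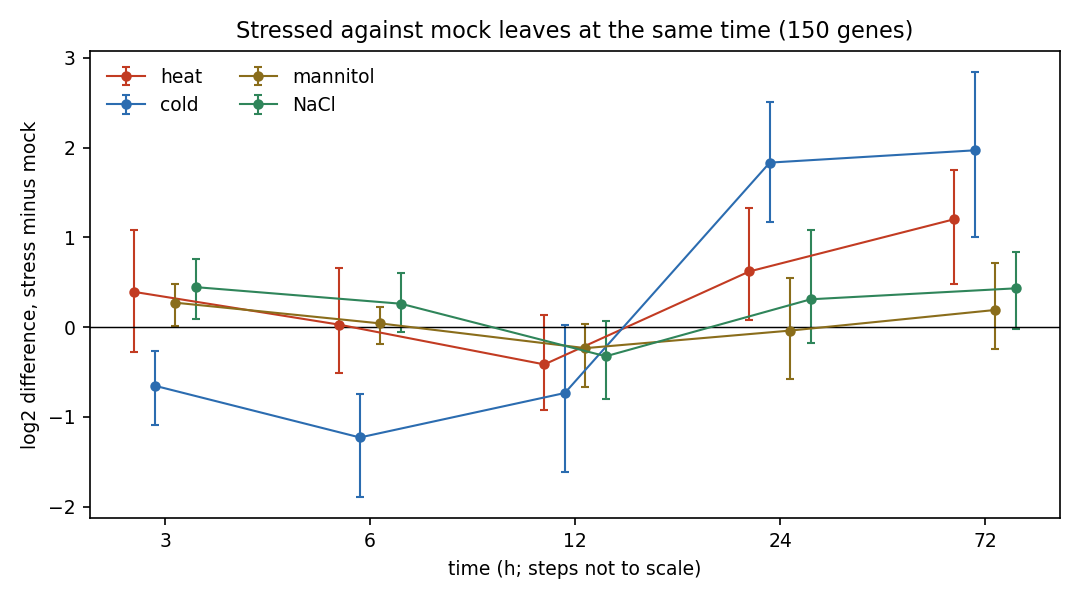
Fitted log2 difference between stressed and mock leaves of the same time, as the median (points) and quartiles (bars) over the 150 genes, by time in h. Cold lay below the mock at 3, 6 and 12 h and above it at 24 and 72 h, with medians of -1.23 at 6 h and 1.97 at 72 h. Values from 6 h on are a description, because the mock libraries of those times chose the genes.

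The 3 h mock libraries entered the mean mock CPM but not S, so the early response could be tested against the mock. At 3 h of heat, 41 genes were higher, against 13.0% of all genes tested, and 17 lower, against 11.5%, with a median difference of 0.39. Under cold at this time, 42 genes were lower, against 5.23%, and 6 higher, against 3.09%, with a median difference of -0.65. In NaCl, 20 genes were higher, against 5.14%, and 3 lower, against 2.73%, with a median difference of 0.45. In mannitol, 9 genes were higher, against 1.70%, and 2 lower, against 0.975%, with a median difference of 0.27. The count of 9 became 2 without mannitol replicate 1.

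Within the high hours, most genes were not called between 6 h and 12 h, and those called were mostly higher at 6 h in NaCl, mannitol and heat. In NaCl, 60 genes were higher at 6 h, against 4.09% of all genes tested, and 0 higher at 12 h, against 4.03%. At an unadjusted p below 0.05 the counts were 118 and 7, and DESeq2 called 60 and 0. In mannitol, 41 were higher at 6 h, against 4.10%, and 3 at 12 h, against 3.80%, and with library totals the first count fell to 22. In heat, 39 were higher at 6 h, against 3.42%, and 0 at 12 h, against 3.08%. At an unadjusted p below 0.05 the heat counts were 114 and 3, and DESeq2 called 35 and 0.

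In cold 141 genes were not called. There 0 genes were higher at 6 h, against 1.11% of all genes tested, and 9 at 12 h, against 1.84%. At an unadjusted p below 0.05, 8 were higher at 6 h and 71 at 12 h, and DESeq2 called 0 and 9. The count at 12 h rose to 15 without cold replicate 1. The median difference between 6 and 12 h was -0.29 in cold, against 0.69, 0.51 and 0.80 in heat, mannitol and NaCl.

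The hour of the highest mean fell at 6 h for 127 genes in heat, 129 in NaCl and 107 in mannitol, against 22%, 20.7% and 20.3% of all genes tested. In cold 14 and 47 genes were highest at 6 and 12 h, against 8.46% and 9.87% of all genes tested, and 44 each at 24 and 72 h, against 15.2% and 46.4%. The range of a gene over the 5 stress times, from its lowest to its highest group mean, had a median of 1.71 in cold, against 2.19, 2.81 and 2.84 in heat, mannitol and NaCl. Over all genes tested the same median was 0.895 in cold and between 0.730 and 0.789 in the other stresses. In cold no single hour held the highest level of most of the 150 genes.

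**Figure D4:**
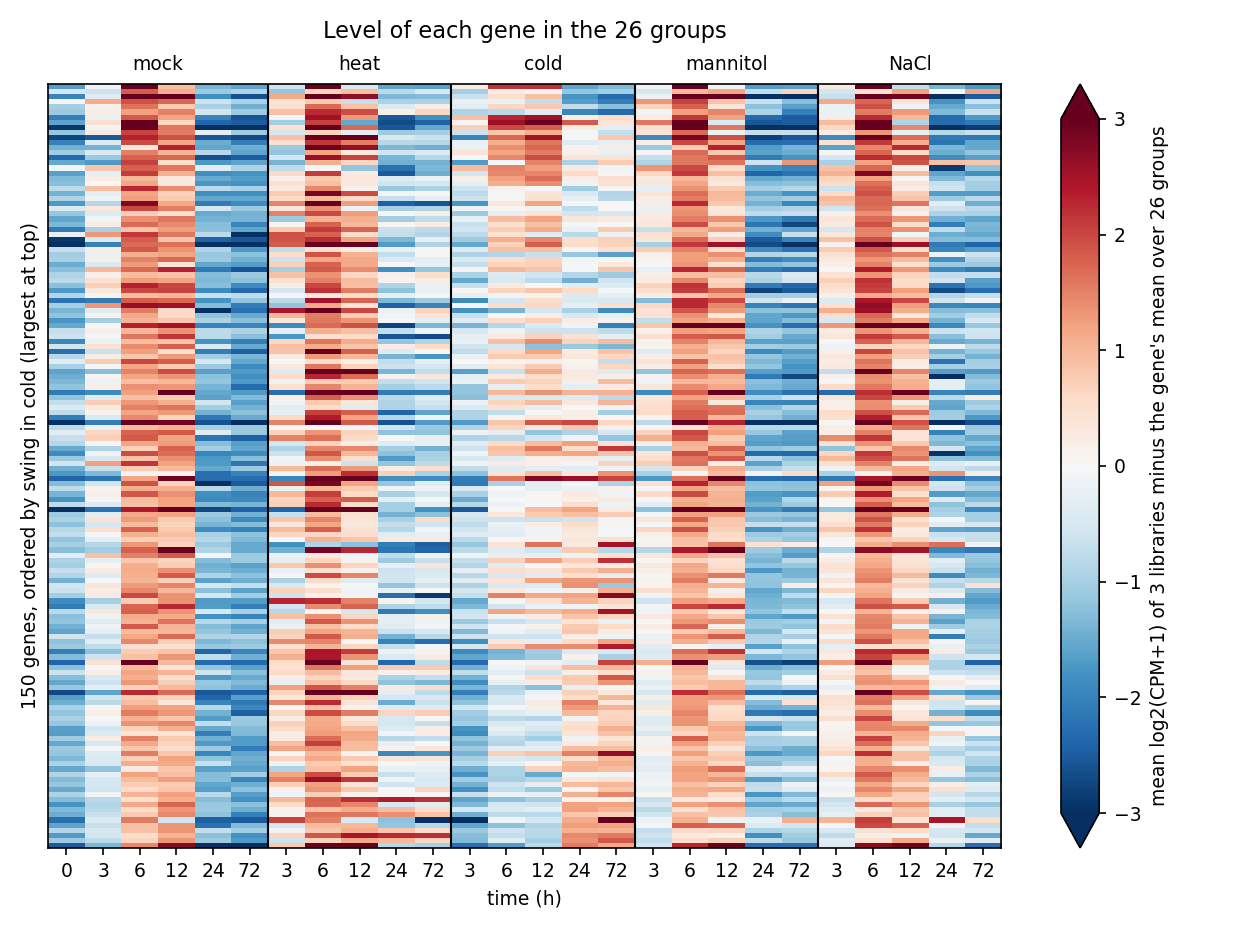
Mean log2(CPM+1) of each of the 150 genes (rows) in the 26 groups (columns, by treatment and time in h), minus the gene's mean over all groups, ordered by the swing in cold with the largest at the top. The bands of high values at 6 and 12 h are seen in mock, heat, mannitol and NaCl, and in cold only the top rows show them.

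The genes differed in how early they rose in the mock. By 3 h the median gene had covered 46.4% of its rise from the low to the high hours, with quartiles of 32.8% and 56.7%. By this measure 58 genes were early, with at least 50% of the rise at 3 h, 89 were later and 3 lay below their low level at 3 h. In cold the swing was called lower in 1 of the 58 early genes and 17 of the 89 later ones, where 7.18% of all genes tested were lower, and higher in 11 and 14, where 11.7% were higher. Against the 3 h mock, 25 early and 17 later genes were lower in cold, against 5.23% of all genes tested, and 7 early and 33 later genes were higher in heat, against 13.0%. The 3 h counts are set beside a grouping that used the same 3 h mock libraries, and the difference between the groups was not tested.

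The genes also differed in which of the high hours stood out. In the mock, 40 genes were higher at 6 h by at least 0.5 on the log2 scale, 21 were higher at 12 h by as much, and 89 were near equal. In NaCl, 33 of the 40 and 2 of the 21 were called higher at 6 h than at 12 h. In mannitol these counts were 22 and 0, and in heat 24 and 0. Of the 89 near-equal genes, 25 in NaCl, 19 in mannitol and 15 in heat were called higher at 6 h. All of these counts stand beside 4.09%, 4.10% and 3.42% of all genes tested in NaCl, mannitol and heat. In cold 0 of the 40 were called higher at 6 h, against 1.11% of all genes tested, and 2 at 12 h, against 1.84%. Of the 21 genes higher at 12 h in the mock, 3 were called so in mannitol, against 3.80% of all genes tested. In cold 3 were too, against 1.84%, and in heat and NaCl 0 were, against 3.08% and 4.03%.

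The 26 genes with a swing called higher in cold had median levels of 3.95 and 4.40 at 6 and 12 h of cold, and of 2.90 and 2.60 at 24 and 72 h. The 18 genes with a swing called lower in cold had median levels of 2.49, 2.66, 4.13 and 4.26 at the same hours. The 106 genes that were not called stood at 4.76, 4.91, 5.01 and 5.16. Both called groups had weaker levels than the rest. In heat the median swing was 2.85 in the first of these groups, 0.63 in the second and 1.69 in the third.

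Single genes show the range of these patterns. The 2 genes with the largest S, and the genes with the highest and the lowest fitted swing in each stress, are described below. Because they are extremes of the same fit, their swing in the stress that named them carries no further weight.

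Gene scaffold538.3 had the largest S, 5.54. In the mock its CPM was 242, 262 and 270 in the 3 libraries at 6 h and 3.74, 3.19 and 2.97 at 24 h. In mannitol it ran from 117 to 247 at 6 and 12 h, with a median of 179, and from 0.935 to 2.11 at 24 and 72 h, with a median of 1.67. The groups did not overlap, and the swing was 6.63 ± 0.16 (SE, n = 6 against 6, edgeR adjusted p = 1.78e-43). Here and below the SE is derived from the F of the test in the fit of all 78 libraries. In cold it was 48.6, 48.8 and 40.6 at 6 h, and 87.7, 104 and 91.7 at 12 h. On the next day it was 99.3, 91.4 and 123, and after 72 h it was 36.9, 38.0 and 46.6. The high-hour and low-hour libraries overlapped in cold, and the swing of 0.27 ± 0.10 (SE, edgeR adjusted p = 0.0162) was too small to be called. The swing in cold minus that in mannitol was -6.36 ± 0.20 (SE, edgeR adjusted p = 2.81e-37). At 3 h this gene was already higher in heat, at 69.4, 59.7 and 91.3 CPM, than in the mock, at 8.06, 3.73 and 4.67 (log2 difference 3.64 ± 0.18 SE, edgeR adjusted p = 8.14e-26).

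Gene scaffold39.7 had the second largest S, 4.96, and was highest in heat. Its CPM was 945, 951 and 987 at 6 h of heat, against 126, 128 and 122 at 6 h of mock. At 24 h of heat it was down to 7.25, 16.3 and 11.6, against 2.22, 3.66 and 1.13 at 24 h of mock. The swing in heat was 5.39 ± 0.14 (SE, edgeR adjusted p = 2.24e-41), and did not differ from that in mannitol by the test (difference 0.23 ± 0.22 SE, edgeR adjusted p = 0.418). In cold it ran from 59.4 to 149 at the high hours and from 52.1 to 65.1 at the low hours. Those ranges overlapped, and the swing of 0.91 ± 0.12 (SE, edgeR adjusted p = 6.17e-10) stayed below the limit of 1.

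Gene scaffold495.15 had the lowest swing in cold, -2.45 ± 0.14 (SE, edgeR adjusted p = 5.74e-24). In cold its CPM was 9.05, 5.91 and 6.01 at 6 h and 14.0, 15.1 and 11.4 at 12 h. It was then 76.7, 66.2 and 72.6 after 24 h and 76.4, 46.3 and 45.9 after 72 h. All 6 low-hour libraries lay above all 6 high-hour libraries, the reverse of the mock, where the gene stood at 179, 150 and 171 at 12 h and at 1.66, 2.23 and 1.70 at 24 h. In heat, mannitol and NaCl the swing was 4.26 ± 0.13, 4.97 ± 0.15 and 4.46 ± 0.14 (SE, edgeR adjusted p = 2.99e-37, 5.83e-38 and 4.56e-37).

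Gene scaffold449.45 had the highest swing in cold and kept its low hours low there. In cold its CPM was 13.9, 12.0 and 16.1 at 6 h and 14.4, 14.2 and 13.8 at 12 h. At 24 and 72 h of cold it had between 0 and 4 counts per library, so its fitted swing of 6.23 ± 0.28 (SE, edgeR adjusted p = 8.4e-28) depends on the prior count of the fit. In the other treatments its 12 h level was well below its 6 h level. In NaCl it was 36.9, 43.7 and 35.8 at 6 h and 0.737, 1.44 and 0.894 at 12 h. The mock had 31.1, 38.0 and 31.7 at 6 h, then 5.39, 5.78 and 4.25. Its 6 h value was above its 12 h value by 5.32 ± 0.27 in NaCl (SE, edgeR adjusted p = 1.7e-24), while in cold the difference was -0.07 ± 0.20 (SE, edgeR adjusted p = 0.875).

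**Figure D5:**
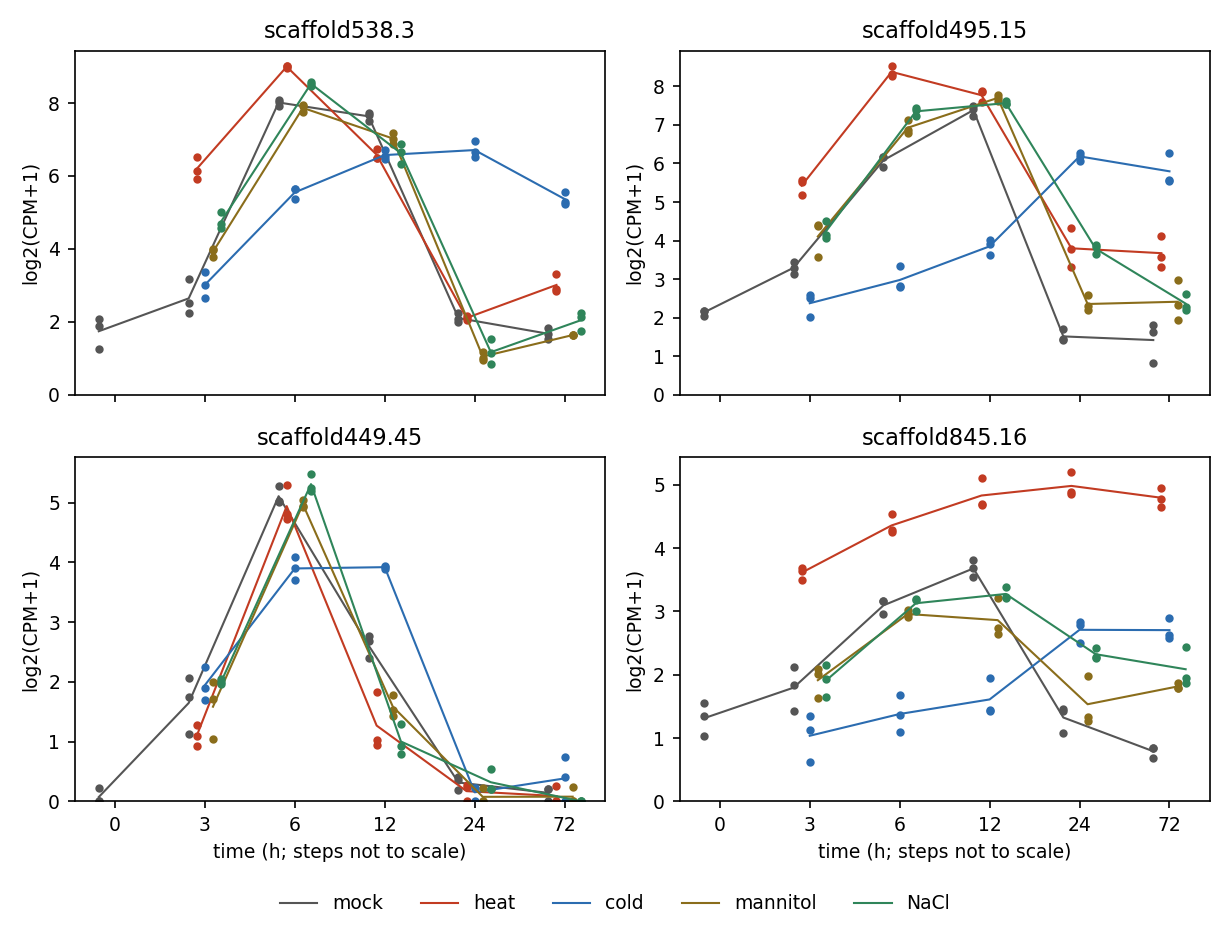
log2(CPM+1) of 4 genes in each library (points) by time in h and treatment, with lines through the means of 3 libraries. In cold scaffold538.3 stayed up at 24 and 72 h, scaffold495.15 rose at 24 h and scaffold449.45 fell to 4 counts or fewer, and in heat scaffold845.16 stayed at 18.1 CPM or more from 6 h to 72 h.

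Gene scaffold845.16 had the lowest swing in heat. Its CPM in heat was 10.3, 11.9 and 11.5 at 3 h and then stayed between 18.1 and 35.8 in all 12 libraries from 6 to 72 h. High-hour and low-hour libraries overlapped, and the swing of -0.44 ± 0.11 (SE, edgeR adjusted p = 0.000413) was within the limit. At 3 h it was higher in heat than in the mock, at 2.58, 1.69 and 3.34 (log2 difference 2.05 ± 0.22 SE, edgeR adjusted p = 2.09e-12). The swing was called lower in cold, at -1.34 ± 0.18, and higher in mannitol, at 1.34 ± 0.17 (SE, edgeR adjusted p = 2.62e-09 and 3e-10). Its neighbour by gene number, scaffold845.15, is also among the 150 genes.

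Gene scaffold545.5 had the highest swing in heat. Its CPM was 87.0, 89.1 and 76.7 at 6 h of heat and 85.7, 77.5 and 71.6 at 12 h, with 0 to 4 counts per library at 24 and 72 h, so the fitted swing of 7.16 ± 0.22 (SE, edgeR adjusted p = 5.29e-37) again depends on the prior count. In the mock it was higher at 12 h, at 90.5, 97.9 and 85.6, than at 6 h, at 11.4, 19.7 and 11.4. In cold it stayed within 7.60 and 16.4 in all 12 libraries from 6 h on, and the swing of 0.41 ± 0.15 (SE, edgeR adjusted p = 0.0147) was not called.

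Gene scaffold610.87 had the highest swing in mannitol. There its CPM ran from 93.4 to 134 at 6 and 12 h, with a median of 109, and it had 0 to 3 counts per library at 24 and 72 h. No fold is drawn from these low counts. It was one of the 26 genes with a higher swing in cold, where it ran from 13.2 to 23.2 at the high hours and from 0.967 to 3.48 at the low hours without overlap (swing 3.48 ± 0.17 SE, edgeR adjusted p = 7.66e-27).

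Gene scaffold616.9 had the highest fitted swing in NaCl and was weak. It ran from 6.19 to 26.9 CPM at 6 and 12 h of NaCl and had 1 count in a single library and 0 in the other 5 at 24 and 72 h, so no fold is drawn from it. In heat it reached 66.0, 67.5 and 56.8 at 6 h, and in the mock 8.83, 9.43 and 6.61.

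The gene with the lowest swing in mannitol, scaffold859.2, varied widely between replicates. It stood at 268, 113 and 157 CPM at 6 h of mock, and at 52.7, 15.4 and 1.04 CPM in the mock libraries of 0 h. In mannitol its swing was -0.03 ± 0.45 (SE, edgeR adjusted p = 0.971), with libraries from 28.3 to 247 CPM at the high hours and from 41.3 to 150 at the low hours. In cold it was 606, 422 and 398 at 72 h, and the swing was called lower, at -1.83 ± 0.45 (SE, edgeR adjusted p = 0.000364). For NaCl the lowest swing was that of scaffold311.82. Its CPM there was 97.9, 108 and 108 at 6 h and 207, 237 and 178 at 12 h. It was then 250, 281 and 220 at 24 h and 121, 120 and 90.9 at 72 h. High-hour and low-hour libraries overlapped, and its swing in NaCl was -0.29 ± 0.21 (SE, edgeR adjusted p = 0.256). Its mock libraries at 6 h varied more, at 174, 69.2 and 63.9. In heat the same gene had a swing of 1.67 ± 0.22 (SE, edgeR adjusted p = 1.58e-09).

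The 150 genes lay on 131 scaffolds, of which 17 held more than 1, with at most 3 on a scaffold. Of 88 genes whose next gene by number was in the CPM range, 6 had another of the 150 genes there, which is 6.82%, against 0.932% of all genes in that range. This share is a description. Neighbours by number can be near-identical copies between which reads are split, or can overlap, and the strand setting of the counting is not given in the sources used here.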

How the data were processed

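The authors trimmed the reads with cutadapt (1.9.1 in the submitters' processing notes) and the NGS QC Toolkit, checked them with FastQC (0.11.5), mapped them with Hisat to the genome of CM334, and obtained gene counts with featureCounts (1.5.2), from strand-specific libraries. The deposited table holds raw read counts for 35884 genes in 78 libraries, without normalization, and was used as deposited. Groups, times and replicate numbers came from the sample labels. The 3 replicates of a group are separate biological replicates by the labels. Counts come from reads without molecular identifiers, and a count of 3 was taken as the floor for folds. The tests take in the spread between the 3 replicates of a group as well as counting error.

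CPM used library totals, and levels are log2(CPM+1) with a pseudocount of 1. Tests were run in R 4.3.3 with edgeR 4.0.16: filterByExpr kept 19588 genes, libraries were scaled by TMM (factors 0.835 to 1.24), and 1 quasi-likelihood fit over 26 groups (52 residual degrees of freedom, common biological coefficient of variation 11.4%) gave 22 contrasts. Adjustment was by Benjamini-Hochberg within a contrast. Each SE is the absolute log2 difference divided by the square root of the test's F. It rests on the fit of all 78 libraries, not on the spread of the compared libraries alone, and is unreliable where counts are near 0. A gene was called at an adjusted p under 0.05 and an absolute log2 change over 1, the limits in the study's methods. Values set against the 6, 12, 24 and 72 h mock are descriptions with no test.

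The genes and groupings were chosen with earlier results of these data known. Genes were named by a rule: the 2 with the largest S, and the highest and lowest swing in each stress. Alternatives were DESeq2 1.42.0, the replicate number as a block, RLE scaling, library totals, no filter, a filter of 1 CPM in 3 libraries, the adjusted p alone, other pseudocounts, no cap of 150 and each replicate left out. Leaving out mock replicate 1 at 6 h and the mannitol libraries that stood apart were alternatives chosen after seeing the data. Gene ontology and gene names were not used here.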

Additional observations from a re-analysis of the deposited data

Results flagged for a closer look

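Differences in swing between stresses, tested directly with edgeR, were singled out because the same contrast gave unlike values in different treatments. The swing was smaller in cold than in mannitol for 138 of the 150 genes, against 11.4% of all genes tested. It was smaller in cold than in heat for 104, against 12.4%, and larger for 2, against 13.0%. It was smaller in heat than in mannitol for 61 genes, against 6.83%, and larger for 7, against 8.49%. The swing was larger in NaCl than in mannitol for 3 genes, against 0.740%, and smaller for 3, against 0.531%.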

How the results depend on the processing

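Of 561 values of 49 results under the alternatives, 487 stayed within 1.5 times of a count or 1 SD of a median, and 74 moved. With the adjusted p alone as the limit, the swing was called higher in 65 and lower in 50 genes in cold and lower in 1 in heat. No share of all genes tested is given at this looser limit, so its counts here and below cannot be set against a background. It was then smaller in 92 in heat than in mannitol, smaller in 23 in NaCl than in mannitol and larger in 7 in cold than in heat. Against mannitol at 6 and 12 h this limit gave 15 higher and 106 lower in cold, 43 and 54 in heat, and 21 and 8 in NaCl. At 24 and 72 h it gave 8 lower in cold, 95 higher and 20 lower in heat, and 55 and 7 in NaCl. Against the 3 h mock, heat then had 77 higher and 31 lower, cold 80 lower, mannitol 36 and 6, and NaCl 70 and 11. For 6 h against 12 h, heat had 103 higher and 3 lower, cold 3 and 50, mannitol 87 and 7, and NaCl 111 and 6.

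Scaled by library totals, the swing in cold was called lower in 34 genes, and 22 genes were higher at 6 h than at 12 h in mannitol and 1 in cold. The same scaling gave 2 genes higher in cold than in mannitol at 6 and 12 h, 8 higher in NaCl than in mannitol at 24 and 72 h, and 1 with a larger swing in NaCl than in mannitol or in cold than in heat. Without a filter on low counts, 3 genes were higher in cold than in mannitol at 6 and 12 h. DESeq2 called 1 gene with a larger swing in cold than in mannitol.

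Medians of the swing on the log2(CPM+1) scale with library totals were 1.70 for heat, -0.10 for cold, 2.42 for mannitol and 2.21 for NaCl. They became 1.84, 2.59 and 2.39 in heat, mannitol and NaCl with log2(CPM+0.25), and 1.48, 1.96 and 1.82 with log2(CPM+4). With TMM factors they were 1.56, 0.14, 2.22 and 2.10 in heat, cold, mannitol and NaCl, and over all 473 genes with S of 1 or more they were 1.02, -0.37, 1.62 and 1.36. The median in NaCl lay between 2.14 and 2.30 with each replicate left out.

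Leaving out 1 replicate moved small counts. The swing was larger in NaCl than in mannitol for 1 to 2 genes and smaller for 2 to 5, larger in cold than in mannitol for 0 to 1 and larger in cold than in heat for 1 to 2. At 6 and 12 h 3 to 6 genes were higher in cold and 0 to 2 in NaCl than in mannitol, and at 24 and 72 h 1 to 6 were higher in NaCl. At 3 h of mannitol 2 to 12 genes were higher than in the mock. For 6 h against 12 h, 0 to 3 genes were higher and 8 to 15 lower in cold, 0 to 1 lower in heat and 0 to 1 lower in NaCl. The ends of these ranges came without cold replicate 1, heat replicate 2 and NaCl replicate 3 for 6 h against 12 h, without mannitol replicate 2 for the 1 gene with a larger swing in cold than in mannitol, and without mannitol replicate 1 for the 2 genes at 3 h. Without mannitol replicate 3 at 6 h and at 12 h, an alternative chosen after seeing the data, the swing in mannitol was called higher in 144 and lower in 0 genes.

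Between 120 and 145 of the 150 genes were chosen again under another pseudocount, TMM factors or fewer mock libraries. Same-numbered replicates were not paired by the labels, and their deviations had median correlations between 0.003 and 0.047 within treatments. Single pairs ran from -0.383 in cold to 0.491 in the mock. With the replicate block, the swing was called higher in 112, 26, 146 and 143 genes in heat, cold, mannitol and NaCl, and no count moved by over 1.5 times. The median of 34 counts at the low hours limits small differences there, and with 5 genes in the mock and 7 in mannitol at 3 counts or fewer at 24 and 72 h, their fitted changes depend on the prior count. The causes were not tested.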
